A study of Mus musculus with 14 samples.

Results

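The cells described here were a group of 727 neurons of the mouse pontine nuclei (PN) at postnatal day 5 (P5) that carried *Tcerg1l* and none of the genes that mark other PN neurons above a fixed limit. They were chosen from raw counts of unique molecular identifiers (UMIs), 1 UMI standing for 1 captured transcript. Cells of the 2 P5 libraries were considered from 1000 genes upwards and below 10% mitochondrial UMIs, and had to carry at least 20 UMIs of *Mapt*, at least 1 of *Slc17a6*, at least 1 of *Barhl1* and 0 of *En2*. The cells that passed these base limits are called gated neurons. A *Tcerg1l* neuron further had at least 2 UMIs of *Tcerg1l*, at most 24 of *Sst*, at most 4 of *Cdkn1c* and at most 1 each of *Nr2f2*, *Etv1*, *Hoxb5* and *Gad2*. Of 17908 P5 cells that passed the quality limits, 8074 were gated neurons, and of these 484 in library 1 and 243 in library 2 were *Tcerg1l* neurons. The series held 150188 barcodes in 14 libraries, of which 122658 passed the quality limits.

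The PN are the main relay between the cerebral cortex and the cerebellum. Their neurons are glutamatergic, send mossy fibers to the cerebellum, and arise from progenitors of the rhombic lip that express the transcription factor *Atoh1*. From there they migrate tangentially along the surface of the brainstem to the ventral pons. Neurons that leave the rhombic lip at more caudal levels express Hox genes of higher paralogue groups.

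Each P5 library came from PN that were micro-dissected from 11 to 13 pups and pooled, so that single pups could not be told apart. The P5 mice were controls on the C57BL/6J background that carried *Atoh1*Cre/+ with a Cre-dependent *Rosa*lsl-TdTomato reporter. Cre replaces the coding region of 1 *Atoh1* copy, so the controls too had a single working copy, and the reporter marks every descendant of a cell that once expressed *Atoh1*, including lineages outside the PN. Sorted TdTom+DAPI- cells were loaded. The embryonic libraries each came from the whole hindbrain of 1 embryo, 3 controls and 3 *Atoh1*S193A/- embryos at each of E14.5 and E18.5, where the mutant carried the S193A allele over the Cre (null) allele and each mutant was collected with a control littermate. The P5 samples were all controls, and too few cells met the limits at E14.5, so the genotypes were compared at E18.5 alone. Libraries held between 108239001 and 236964126 UMIs.

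The base limits define the cells as glutamatergic neurons, since *Mapt* codes for the axonal microtubule protein tau, *Slc17a6* for the vesicular glutamate transporter VGLUT2, and *Barhl1* for a homeobox factor of the rhombic lip lineages, while *En2* marks cerebellar granule cells. Levels of genes outside the rule are given beside this label, as a description. *Pax6*, a transcription factor of the migrating precerebellar neurons, stood at 98.9 and 98.0 CPM (UMIs per 1000000 UMIs of the class) in libraries 1 and 2, and *Zic1* at 629 and 598 CPM. The paper takes *Pax6* and *Barhl1* as markers of the external granule layer of the cerebellum too. *Hoxb3* and *Hoxb4*, the other pontine genes listed outside the rule, are described below, with *Hoxb3* higher and *Hoxb4* lower than in other gated neurons. *Gad1* was at 0.267 and 0.357 CPM and *Slc32a1*, the vesicular GABA transporter, at 0.534 and 0 CPM, both at or near 0. *Gad2*, which codes for another enzyme of GABA synthesis and which the rule limited to 1 UMI, was at 12.3 and 9.64 CPM, with a UMI in 38.2% and 33.3% of cells, and *Lhx1*, also on the inhibitory neuron list, was at 17.5 and 15.9 CPM. In all that follows, paired values are those of library 1 and library 2 in that order.

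*Tcerg1l* neurons made up 9.67% of gated neurons in library 1 (exact 95% binomial interval 8.87 to 10.5) and 7.92% in library 2 (6.99 to 8.93), a mean of 8.79% ± 1.24 (SD, n = 2). These intervals cover counting error only. The limit on *Tcerg1l* ran through the lower part of a continuous range of counts. Among *Tcerg1l* neurons the median was 3 UMIs and the highest 11, with 183 and 91 cells at exactly 2 UMIs. Just outside, 254 and 121 cells had exactly 1 UMI and met every other limit. The group is therefore a range of counts and not a cluster, and *Tcerg1l* neurons were also sequenced more deeply (median 28336 and 31236 UMIs per cell) than the 576 and 289 gated neurons that met all other limits with 0 or 1 UMI of *Tcerg1l* (23906 and 25253). Of the *Tcerg1l* neurons, 51 (10.5%) and 43 (17.7%) were among the 7.5% of cells with the highest doublet scores, which were kept. No barcode of a *Tcerg1l* neuron occurred in both libraries, and 38 barcodes of any kind did.

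The gated neurons outside the group were divided by the limit they exceeded. Those above a single limit, whatever their *Tcerg1l* count, numbered 672 and 427 for *Sst* (Sst-high), 530 and 299 for *Gad2* (Gad2-high), 406 and 308 for *Cdkn1c* (Cdkn1c-high), 254 and 145 for *Hoxb5* (Hoxb5-high), 153 and 94 for *Nr2f2* (Nr2f2-high) and 123 and 58 for *Etv1* (Etv1-high). At least 2 UMIs of *Tcerg1l* were found in 419 and 273 Sst-high, 228 and 135 Gad2-high and 67 and 53 Cdkn1c-high neurons. The same held for 46 and 17 Hoxb5-high, 47 and 23 Nr2f2-high and 35 and 11 Etv1-high neurons, so *Tcerg1l* was not confined to the group. A further 1807 and 1206 gated neurons were above 2 or more limits, and the rest were the *Tcerg1l*-low neurons just described. Each class was compared with the *Tcerg1l* neurons. Over the 3906 and 3884 genes compared, Pearson's r of log levels between *Tcerg1l* neurons and *Tcerg1l*-low neurons was 0.994 and 0.994, and that with Gad2-high neurons 0.993 and 0.990. Sst-high neurons were at 0.991 and 0.978, neurons above 2 or more limits at 0.988 and 0.986, and Cdkn1c-high neurons at 0.965 and 0.967. These correlations are across genes, which are not replicates, within libraries that share depth and free RNA.

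The given markers of the group were 4 genes, and their levels are given as a description, since *Tcerg1l* was part of the rule. In the mm10 build they lie on the minus strand, *Tcerg1l* at chr7:138208974-138397730, *Cdh8* at chr8:99024471-99416471, *Pcdh19* at chrX:133582860-133688987 and the long intergenic RNA gene *Rmst* at chr10:92071037-92165170. *Tcerg1l*, which codes for a relative of a transcription elongation regulator, stood at 111 and 103 CPM, against 81.0 and 78.8 CPM in Sst-high neurons, the class with the next highest level. *Cdh8*, a classical cadherin, was at 181 and 162 CPM in *Tcerg1l* neurons and at 164 and 161 CPM in Nr2f2-high neurons. *Pcdh19*, a protocadherin, was at 170 and 182 CPM. Gad2-high neurons had more *Pcdh19* than that in both libraries, at 224 and 229 CPM, as did Hoxb5-high neurons, at 177 and 200 CPM. *Rmst*, a long noncoding RNA, was at 47.9 and 51.3 CPM in *Tcerg1l* neurons and higher in Gad2-high neurons, at 71.5 and 89.4 CPM. The data therefore went against *Pcdh19* and *Rmst* as markers of this group, whereas *Cdh8* was highest in it by a small margin.

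**Figure D1:**
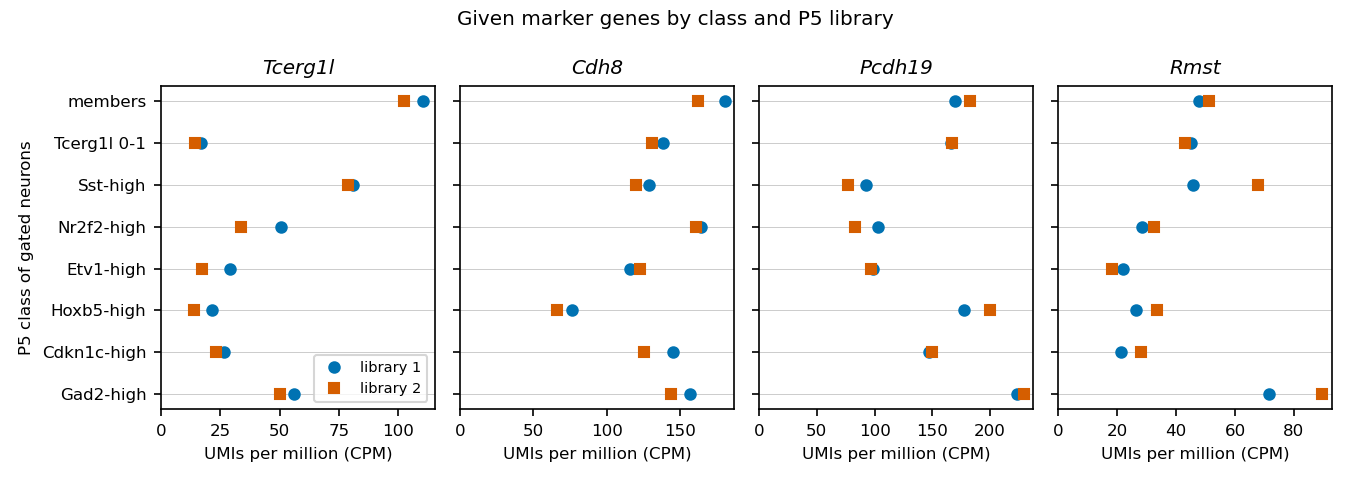
Levels of the 4 given marker genes (CPM, from 0) in the *Tcerg1l* neurons ("members") and 7 other classes, where "Tcerg1l 0-1" stands for *Tcerg1l*-low neurons, of gated neurons at P5, with circles for library 1 and squares for library 2. *Tcerg1l* was highest in the members, at 111 and 103 CPM, whereas *Pcdh19* and *Rmst* were higher in Gad2-high neurons, where *Pcdh19* was at 224 and 229 CPM.

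The share of cells with a UMI is given for *Tcerg1l* as a description. After each cell was thinned to 10000 UMIs, *Tcerg1l* was found in 72.6% and 71.2% of *Tcerg1l* neurons, in 50.1% and 50.6% of Sst-high neurons and in 20.7% and 12.7% of *Tcerg1l*-low neurons. Without thinning the last share was 44.1% and 41.9%. In glial cells of the same libraries, which should lack these transcripts, between 2.0% and 4.6% of cells had a UMI of *Tcerg1l* at median depths of 6978 to 11549 UMIs. *Sst*, by contrast, had a UMI in 32.9% and 15.3% of microglia, at median depths of 9448 and 10272 UMIs. UMIs of this neuropeptide gene were thus common in these glial cells, and their source was not tested. In *Tcerg1l* neurons 84.5% and 84.8% of cells had 1 to 24 UMIs of *Sst*.

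Few genes were highest in the group. Of 3433 genes at 50 CPM or more in *Tcerg1l* neurons, 41 were highest in them in both libraries when the 7 other single classes were compared, and 6 of these were at least 1.1 times the next class in both. *Tcerg1l* itself, at 1.37 and 1.30 times, was used to choose the cells. The others were *Smarcd3*, at 102 and 112 CPM (1.20 and 1.24 times the next class), *Hoxb3* (1.17 and 1.15 times), *Ext1* (1.15 and 1.13 times), *Khdrbs3* (1.12 and 1.13 times) and *Tshz3* (1.10 and 1.14 times). These genes were picked after their levels were seen and are given without a test.

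The *Tcerg1l* neurons were then compared with all 7347 other gated neurons, with UMIs summed per library and the library as a block, over 11125 genes (edgeR quasi-likelihood test, Benjamini-Hochberg adjusted p under 0.05 and a log2 change over 0.25 in size). The genes of the rule and the given markers were left out, 14 in all. 303 genes (2.72% of those tested) were higher in the *Tcerg1l* neurons and 412 (3.7%) lower, so that 6.43% of genes passed, and the median log2 change over all genes was 7.2e-04. Since neurons above the other limits were removed by the rule, levels of genes that accompany those markers are not independent of it. A gene was tested if at least 10% of cells of either group had a UMI of it, and 90 of the 412 lower genes were below that share in *Tcerg1l* neurons, so that they entered through the other neurons alone and had to be lower. Likewise 19 of the 303 higher genes were below it in the other gated neurons and entered through the *Tcerg1l* neurons alone. The test rests on 2 libraries with a single residual degree of freedom and borrows the spread across genes. DESeq2 called 323 genes in the same design, and without the library block edgeR called 4.

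Among called genes at 50 CPM or more in either group, the largest rises were of modest size. *Pcp4*, a regulator of calmodulin, was at 1933 and 1726 CPM in *Tcerg1l* neurons and at 1048 and 951 CPM in the other gated neurons, a log2 change of 0.87 ± 0.02 (SE, edgeR adjusted p = 3.1e-16). Both libraries gave the same size, 0.88 and 0.86, and Sst-high neurons had still more, at 2435 and 2280 CPM. *Efr3a*, a membrane scaffold of a phosphatidylinositol kinase, rose from 71.0 and 62.8 CPM to 123 and 116 CPM (log2 change 0.83 ± 0.04, edgeR adjusted p = 4.0e-12) and was highest in *Tcerg1l* neurons among the 8 classes. *Pcsk2*, the prohormone convertase of neuropeptide precursors, was at 194 and 155 CPM against 116 and 100.4 CPM (log2 change 0.69 ± 0.04, edgeR adjusted p = 1.2e-11). It was highest in *Tcerg1l* neurons in library 1, while in library 2 Gad2-high neurons were slightly above, at 158 CPM.

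Among the 12 largest rises were also several regulators and surface proteins. The teashirt zinc finger factors *Tshz3* and *Tshz1* were higher by 0.60 and 0.52 on the log2 scale. *Tshz3* was at 73.7 and 64.2 CPM against 48.6 and 42.5 CPM. *Ephb1*, a receptor for ephrin-B ligands, was at 145 and 137 CPM against 101 and 88.6 CPM (log2 change 0.57). *Ajap1*, a protein of adherens junctions, was higher by 0.74 and *Ext1*, an enzyme of heparan sulfate synthesis, by 0.54. The other members of the 12 were *Mb21d2* (0.65), *Vstm2l* (0.54), *Bcl2*, which restrains apoptosis (0.51), and *Car10*, a carbonic anhydrase-related protein that binds neurexins (0.49). *Pcp4*, *Vstm2l*, *Ephb1* and *Car10* were higher still in Sst-high neurons in both libraries. *Ajap1*, *Mb21d2*, *Bcl2* and *Tshz1* were highest in *Tcerg1l* neurons in 1 of the 2 libraries.

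Each of the 12 genes with the largest falls, by the same limit of 50 CPM, was highest, in both libraries, in a class that the rule had removed. The genes were chosen as lower than in the 7347 other gated neurons, all but 865 of which were above a limit. Such an outcome was thus largely fixed in advance. *Hoxc4*, a Hox gene of caudal identity, was at 17.0 and 20.5 CPM in *Tcerg1l* neurons and at 65.7 and 69.2 CPM in the other gated neurons (log2 change -1.87 ± 0.06, edgeR adjusted p = 1.1e-14), and Hoxb5-high neurons carried it at 224 and 219 CPM. *Gstm1*, a glutathione S-transferase, was at 55.3 and 52.6 CPM against 125 and 152 CPM (log2 change -1.32 ± 0.07), and at 512 and 592 CPM in Cdkn1c-high neurons. *Lrrn3*, a leucine-rich repeat protein of the neuronal surface, was at 53.0 and 40.7 CPM against 97.3 and 82.2 CPM (log2 change -0.93) and highest in Nr2f2-high neurons. The genes of the 12 that were lower in *Tcerg1l* neurons than in each of the 7 other classes in both libraries were *Kcnd2*, an A-type potassium channel, at 101 and 95.2 CPM (log2 change -1.03 ± 0.04), *Rit2*, a neuronal small GTPase, at 36.4 and 38.3 CPM (-1.01 ± 0.05), and *Mgat4c*, a glycosyltransferase, at 16.8 and 12.1 CPM (-1.84 ± 0.10). *Syt4*, a synaptotagmin, was at 243 and 254 CPM against 421 and 458 CPM (log2 change -0.82). The others of the 12 were *Klhl5* (-0.72), *Tenm1* (-0.69), *Nrn1* (-0.65), *Igfbp2* (-0.63) and *Phlda1* (-0.63). *Syt4*, *Klhl5* and *Kcnd2* were highest in Cdkn1c-high neurons, *Mgat4c* and *Nrn1* in Hoxb5-high, *Rit2* in Etv1-high and *Igfbp2* in Nr2f2-high neurons. *Tenm1* was highest in Hoxb5-high neurons in library 1 and Etv1-high neurons in library 2, and *Phlda1* in Cdkn1c-high and Nr2f2-high neurons.

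**Figure D2:**
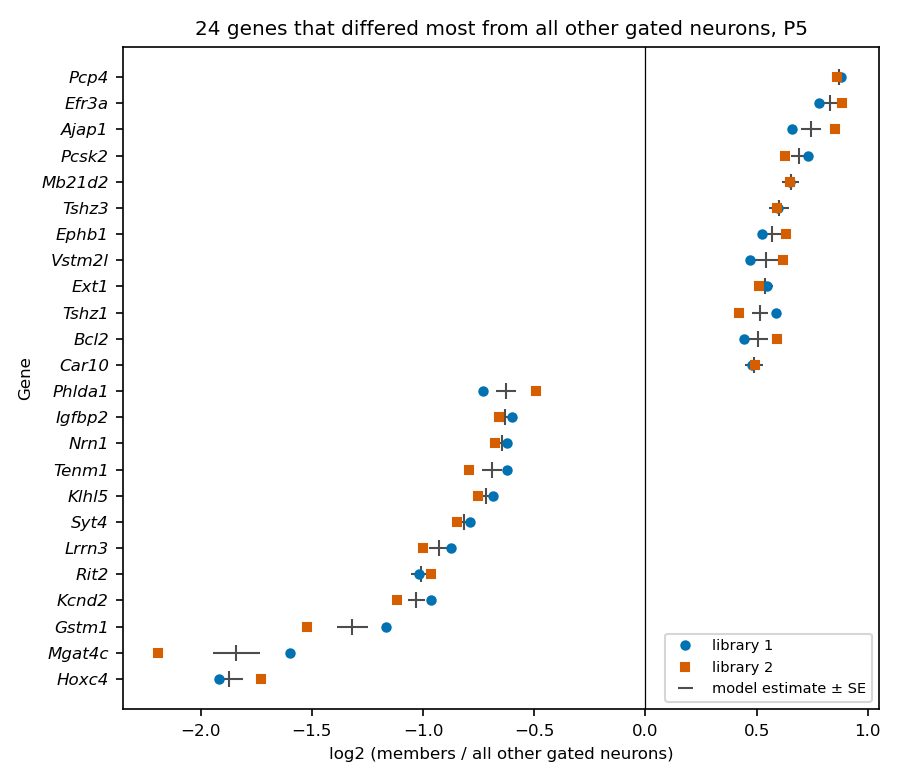
Log2 ratio of the level in *Tcerg1l* neurons ("members") to that in all other gated neurons for the 12 genes with the largest rises and the 12 with the largest falls at P5, among called genes at 50 CPM or more. Circles are library 1, squares library 2, and the gray bars the edgeR estimate with an SE derived from the test's F statistic. Genes were chosen for the same sign in both libraries, and the estimates ran from -1.87 for *Hoxc4* to 0.87 for *Pcp4*.

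Of 23 Hox genes and cofactors listed, 16 could be tested, of which 2 rose, 6 fell and 8 did not pass, with a median log2 change of -0.25, where 2.72% of all genes rose and 3.7% fell. Since cells above 1 UMI of *Hoxb5* had been removed, the lower levels of the posterior Hox genes are not independent of the rule. The 2 that rose belong to the anterior groups. *Hoxb3* was at 133 and 116 CPM against 96.0 and 87.7 CPM (log2 change 0.44, edgeR adjusted p = 1.9e-08), and *Hoxb2* at 47.5 and 46.9 CPM against 33.8 and 36.8 CPM (0.43). *Hoxa2* and *Hoxa3*, of the same groups, had log2 changes of -0.04 and -0.02 and did not pass. The Hox genes called lower belong to more posterior groups. *Hoxa5* was at 1.60 and 1.67 CPM against 24.2 and 22.9 CPM (-3.87) and met the filter through the other neurons alone. *Hoxb4* changed by -1.19 and *Hoxa4* by -0.97. *Hoxb5* itself was limited to 1 UMI by the rule. The cofactor gene *Pbx3* (-1.18) likewise met the filter through the other neurons alone.

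**Figure D3:**
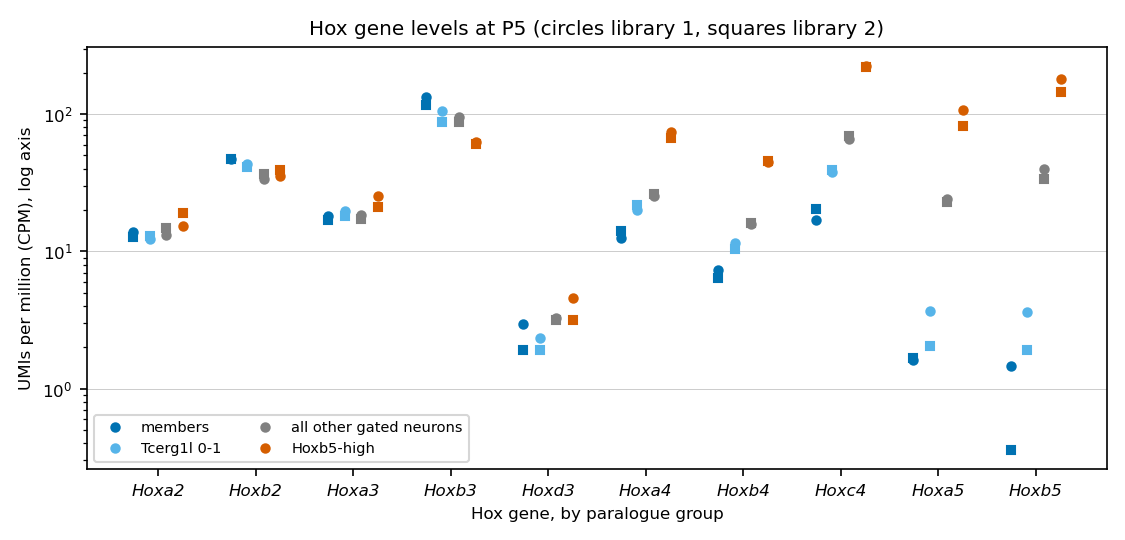
Levels of 10 Hox genes at P5 on a log axis of CPM, ordered by paralogue group, in *Tcerg1l* neurons ("members"), *Tcerg1l*-low neurons ("Tcerg1l 0-1"), all other gated neurons and Hoxb5-high neurons. *Hoxb3* was higher in *Tcerg1l* neurons (133 and 116 CPM) than in the others, and *Hoxc4* lower (17.0 and 20.5 CPM) with *Tcerg1l*-low neurons in between (37.6 and 39.4 CPM).

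The marker lists of the 6 PN subtypes of the study hold 10 genes each. They were found on these same libraries, so their counts are not independent evidence, and they stand against 2.72% of all genes higher and 3.7% lower. Of the PN1 list, 5 of 9 tested genes rose and 1 fell (median log2 change 0.41), among them *Ebf1* (0.41), the prepronociceptin gene *Pnoc* (0.46), *Pcdh10* (0.40) and the collagen gene *Col11a1* (0.43), while *Igfbp5* fell (-0.39). Of the PN2 list, which also holds *Cdh8* and *Pcdh19*, 4 of 8 rose and 0 fell, with *Pcsk2*, *Tshz1*, *Trnp1* (0.43) and *Tox3* (0.40). No gene of the other 4 lists rose. Of 9 tested genes each, 6 fell from PN3, 5 from PN4, 6 from PN5 and 5 from PN6. Of these falls, 1 from PN4 (*Hoxa5*) and 1 from PN6 (*Dmkn*) met the filter through the other neurons alone. *Prox1*, a homeobox factor on the PN3 list, was at 5.47 and 2.86 CPM against 27.3 and 23.4 CPM (log2 change -2.52), and *Igf1* on the PN6 list at 6.21 and 4.28 CPM against 16.7 and 19.0 CPM (-1.68).

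In the lists that follow, counts stand against 2.72% of all genes higher and 3.7% lower. Of 47 tested axon guidance genes, 10 rose and 12 fell (median log2 change -0.01), 5 of the 12 having met the filter through the other neurons alone. *Robo3*, the receptor that gates midline crossing of commissural axons, was at 6.01 and 6.07 CPM against 3.68 and 2.85 CPM (log2 change 0.85 ± 0.15, edgeR adjusted p = 3.8e-04), and of the Slit genes *Slit1* rose (0.57) and *Slit2* fell (-0.33). *Ntn1*, which codes for netrin, rose by 0.66. *Ntng1*, a membrane-bound netrin relative, was at 8.48 and 7.02 CPM against 36.6 and 30.9 CPM (-2.12 ± 0.09). *Efnb2*, an ephrin-B ligand (-1.84), and *Sema3d*, a semaphorin (-1.38), were among those 5. Of 20 tested cadherins and protocadherins, 3 rose and 4 fell, among them *Pcdh10* (0.40), *Pcdh11x* (-0.74) and *Cdh18* (-0.64). Of the 4 falls, 1 (*Cdh10*) met the filter through the other neurons alone.

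Of 39 synaptic organizer genes 12 fell, 1 rose and 26 did not pass (median log2 change -0.10). *Cbln2*, a secreted organizer of synapses, was at 1.67 and 1.43 CPM against 7.94 and 6.09 CPM (-2.20 ± 0.18). With the surface protein gene *Lrrtm3* (-0.79) it was among 3 of the 12 that met the filter through the other neurons alone. *Lrrn3*, described above, and *C1ql3* (-0.73), which codes for a secreted protein, did not depend on that. *Ntm* was the 1 that rose (0.33). Of 22 glutamate receptor genes, 5 rose, among them the kainate receptor gene *Grik4* (0.50), the AMPA receptor gene *Gria3* (0.44) and the metabotropic receptor gene *Grm3* (0.43), and 3 fell, among them *Grik2*, which also codes for a kainate receptor subunit (-0.78) and *Grm8* (-0.72). None of 16 GABA and glycine receptor genes rose and 3 were lower, with *Glra3*, which met the filter through the other neurons alone, at -1.55. Of 51 channel genes, most of them voltage-gated, 7 rose and 8 fell. The calcium channel subunit gene *Cacna2d3* (0.68) and the leak potassium channel gene *Kcnk9* (0.49) were among the rises.

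Transmitter and peptide genes also changed in both directions. Of 8 tested transmitter genes, 2 rose and 1 fell. *Nos1*, the neuronal nitric oxide synthase, rose (0.50), as did *Slc18a3*, the vesicular acetylcholine transporter (0.33). *Slc17a7*, which codes for VGLUT1, was at 34.3 and 34.7 CPM against 36.9 and 34.9 CPM and did not pass. Of 11 tested neuropeptide and processing genes, 3 rose (*Pcsk2*, *Pnoc* and *Gal*) and 4 fell, with the substance P precursor *Tac1* (through the other neurons alone) at -1.13 and the PACAP gene *Adcyap1* at -0.45. Of 43 transcription factors, 6 rose and 8 fell, and 2 of the 8 falls, among them *St18* (-2.01), met the filter through the other neurons alone. Of 33 maturation and growth cone genes 1 rose and 3 fell, and of 15 immediate early and dissociation genes 1 rose and 0 fell, where 6.43% of all genes passed. Of 13 calcium-binding protein genes 2 rose and 1 fell, and of 20 growth factor and receptor genes 2 rose and 5 fell.

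Markers of other cells were read over whole lists. The summed level of 10 astrocyte markers was 102 and 79.1 CPM in *Tcerg1l* neurons and 153 and 132 CPM in the other gated neurons, and that of 10 oligodendrocyte lineage markers 205 and 214 CPM against 422 and 302 CPM. The 10 microglial markers summed to 230 and 160 CPM against 134 and 108 CPM, while in microglia themselves they summed to 24346 and 25402 CPM. All 5 tested astrocyte genes fell, with *Aqp4* at -0.87, and so did 1 of 4 oligodendrocyte genes, while the microglial list had 1 tested gene, which was called higher. Of the granule cell list 2 of 5 tested genes rose and 0 fell, and of the unipolar brush cell list 1 rose and 1 fell. Of 2 tested cycling genes 1 fell, *Hes5*, which met the filter through the other neurons alone. The inhibitory neuron list summed to 34.5 and 30.0 CPM, with *Lhx5* at 0 in both libraries and its 1 tested gene not passing, and the endothelial and mural list summed to 3.94 and 2.26 CPM with 0 genes tested. The part of these transcripts in the changes above was not tested.

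The sharpest comparison was with the 865 *Tcerg1l*-low neurons, which met every other limit. There 209 of 10906 genes (1.92%) were higher in *Tcerg1l* neurons and 223 (2.04%) lower, 3.96% in all. Of these, 16 of the higher and 24 of the lower met the filter through 1 group alone. DESeq2 called 8 genes and gave no adjusted p for the 12 genes named here, and edgeR without the library block called 0 (272 genes at an unadjusted p under 0.05). The *Tcerg1l*-low neurons were also the shallower group. Among cells of 10000 to 25000 UMIs alone, edgeR called 624 genes, 231 higher and 393 lower. *Ly6d*, a surface protein, was at 58.3 and 60.9 CPM against 39.9 and 32.4 CPM (log2 change 0.65 ± 0.07, but 0.24 and not passing among the cells of 10000 to 25000 UMIs), *Rgs6*, a regulator of G protein signaling, rose by 0.54, *Efr3a* by 0.52, *Chn2* by 0.51, the neurotrophin receptor gene *Ntrk3* by 0.48 and *Pnoc* by 0.48. *Nxph1*, a neurexin ligand, was at 34.8 and 29.1 CPM against 65.3 and 81.0 CPM (log2 change -1.17 ± 0.07), and *Rit2* (-0.84), *Gstm1* (-0.69), *Mbp* (-0.52), *Kcnd2* (-0.51) and *Tenm1* (-0.46) followed. *Mbp* codes for myelin basic protein, and 4 of 5 tested astrocyte markers were lower as well. Of the PN lists, which were found on these libraries, 2 of 9 PN1 genes were higher and 1 lower. Of 8 PN2 genes 3 were higher and 0 lower, and of 9 PN5 genes 2 were higher and 2 lower. No gene of the other lists was higher, and 4 of 9 PN3, 5 of 8 PN4 and 6 of 8 PN6 genes were lower.

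Levels of *Rmst* and of genes of the PN2 list are given by the count of *Tcerg1l*, as a description. *Tshz1* was at 191 and 169 CPM in cells with 0 UMIs of *Tcerg1l*, at 252 and 215 CPM with 1 UMI, at 259 and 195 CPM with 2, at 326 and 265 CPM with 3 or 4, and at 380 and 304 CPM with 5 or more. *Cdh8* went from 127 and 115 CPM with 0 UMIs to 198 and 185 CPM with 5 or more. Across the limit itself, from 1 to 2 UMIs, both genes were lower in library 2, *Cdh8* at 148 and then 146 CPM. Median depth moved in the same direction, from 21841 and 21796 UMIs to 30959 and 39778 UMIs, and its part in these levels was not tested. *Rmst* was at 45.2 and 37.4 CPM with 0 UMIs and at 41.6 and 52.9 CPM with 5 or more, with no common direction in the libraries. Of the PN2 list, *Pcsk2*, *Tox3*, *Zbtb18*, *Trnp1* and *Nfia* were also higher with 5 or more UMIs than with 0 in both libraries. *Fabp3* was lower in both, from 1165 and 1243 CPM to 1133 and 1165 CPM. *Ppp1r14c* (197 and 181 CPM, then 196 and 213) and *Pcdh19* (160 and 156 CPM, then 154 and 179) had no common direction.

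*Sst*, the neuropeptide gene that marks PN1, varied below its limit, and levels of other genes are given by its count, as a description. The 253 and 109 *Tcerg1l* neurons with 0 to 4 UMIs of *Sst* had *Ebf1*, a transcription factor, at 216 and 154 CPM. The 154 and 93 cells with 10 to 24 UMIs had it at 536 and 414 CPM. *Pnoc* went from 26.8 and 20.3 CPM to 96.5 and 113 CPM and *Pcp4* from 1528 and 1198 CPM to 2424 and 2292 CPM, while *Tshz1* went from 366 and 276 CPM to 255 and 236 CPM. Between them, with 5 to 9 UMIs, *Ebf1* and *Pcp4* were at intermediate levels, whereas *Pnoc* was at 47.2 and 17.8 CPM and *Tshz1* at 263 and 214 CPM, so that in library 2 neither moved steadily. Median depth was 28247 and 31491 UMIs in the cells with 0 to 4 UMIs and 29458 and 29661 in those with 10 to 24. *Pnoc* was uneven among *Tcerg1l* neurons as a whole, with a UMI in 19.1% and 19.8% of thinned cells and a ratio of variance to mean of 4.70 and 5.47, where the median gene had 1.10 and 1.11. The genes with still higher ratios were led by *Malat1* and included *Apoe*, *Mbp* and *Fabp7*, which glial cells express strongly.

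Set against Sst-high neurons, *Tcerg1l* neurons had 490 of 11062 genes higher (4.43%) and 469 lower (4.24%), 8.67% in all. Of these, 60 of the higher and 68 of the lower met the filter through 1 group alone. All 9 tested genes of the PN1 list fell (median log2 change -0.85). Of the PN2 list 7 of 8 rose (0.42), of PN3 5 of 9 rose and 0 fell (0.49), and of PN4 4 of 8 rose and 1 fell. Of PN5 1 of 9 rose and 5 fell, and of PN6 1 of 8 rose and 3 fell. The lists were found on these libraries, and Sst-high neurons were chosen by *Sst*, a PN1 gene, so these counts are not independent evidence. *Phlda1* was at 84.3 and 102 CPM against 30.7 and 31.1 CPM (log2 change 1.58 ± 0.06), and the zinc finger factor *Zic4* at 215 and 201 CPM against 96.8 and 87.8 CPM (1.18 ± 0.05). *Nrgn* (1.08), *Tshz1* (0.90), *Ifitm2* (0.88) and the kinase gene *Prkcb* (0.85) completed the largest rises among called genes at 50 CPM or more. By the same limit the largest falls were those of the Wnt antagonist *Dkk2* (-1.52), *Pnoc* (-1.49), *Lmo3* (-1.41), *Tmeff2* (-1.38), *Igfbp5* (-1.28) and *Ebf1*, at 346 and 276 CPM against 757 and 676 CPM (-1.19 ± 0.05). Of the marker lists, 1 of 5 astrocyte genes and the 1 tested microglial gene were higher, and of 4 oligodendrocyte lineage genes 1 was higher and 2 lower. Of 5 granule cell genes 2 were higher, while 1 of 2 unipolar brush cell genes and the 1 tested inhibitory neuron gene were lower. Of 15 immediate early and dissociation genes 4 were higher and 1 lower. The part of all these genes in the calls was not tested. DESeq2 called 248 genes and edgeR without the library block 93, and among cells of 10000 to 25000 UMIs edgeR called 483.

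Of the 3 single classes tested, Cdkn1c-high neurons gave the most calls, with 1092 of 11078 genes higher in *Tcerg1l* neurons (9.86%) and 903 lower (8.15%), 18% in all. Of these, 167 of the higher and 149 of the lower met the filter through 1 group alone. All 9 tested PN1 genes rose (median log2 change 2.52) and all 9 tested PN3 genes fell (-1.69). Of the PN6 list 8 of 9 rose (0.95), of PN5 8 of 9 fell (-0.93), of PN4 3 of 8 rose and 1 fell, and of PN2 3 of 8 rose and 2 fell. These lists too came from the same libraries, and Cdkn1c-high neurons were chosen by *Cdkn1c*, a PN3 gene, so the counts are not independent evidence. *Ebf1* was at 44.2 and 39.1 CPM and *Pcp4* at 262 and 238 CPM in Cdkn1c-high neurons, with log2 changes of 2.88 ± 0.05 and 2.86 ± 0.04. *Pnoc* (3.49), *Ajap1* (2.64), *Sostdc1* (2.63) and *Fam19a1* (2.32) were the other large rises. *Prox1* was at 85.1 and 70.4 CPM in Cdkn1c-high neurons (log2 change -4.16 ± 0.11), followed by *Gstm1* (-3.35), *Kctd8* (-3.20), *Zbtb20* (-2.79), *Fbxo2* (-2.75) and *Meis2* (-2.18). Markers of other cells moved in this comparison too. Of 5 tested astrocyte markers 4 were lower (median log2 change of the 5 -0.64). Of 4 oligodendrocyte lineage markers 1 was lower (median of the 4 -2.11), and the 1 tested microglial marker was higher (0.82). Of 5 granule cell markers 2 were higher and 2 lower. Of 2 unipolar brush cell and 2 inhibitory neuron markers 1 each was higher, and 1 of 3 cycling markers was lower. Of 15 immediate early and dissociation genes 6 were higher, among them *Ier3* (1.39) and *Egr1* (0.86), and 3 lower. Their part in the calls was not tested. DESeq2 called 682 genes and edgeR without the library block 681. The 3 comparisons with single classes and the comparison with all other neurons share the same 727 cells.

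The same limits were then applied to the embryonic hindbrains, whose libraries played no part in choosing the cells. At E18.5 they held 13, 21 and 32 cells in the controls and 31, 13 and 31 in *Atoh1*S193A/- embryos, 141 in all. Shares of gated neurons were 2.10%, 3.89% and 3.14% in controls (mean 3.04% ± 0.90 SD, n = 3) and 4.61%, 3.06% and 4.82% in mutants (4.16% ± 0.96 SD, n = 3). The groups overlapped. The mutants were higher by 1.12 percentage points, which did not pass an exact two-sided permutation test (p = 0.3, where the smallest p for 3 against 3 is 0.1). An exact sign-flip test over pairs of the same replicate number, taken as littermates, gave p = 0.5. With cells thinned to 10000 UMIs the difference turned to -0.66 percentage points. At E14.5, 37 cells met the limits, 5, 16 and 3 in controls and 5, 0 and 8 in mutants, and the 0 of 408 gated neurons in mutant 2 allows a share of up to 0.735% as the limit of 3 cells, with an exact 95% binomial upper bound of 0.900%. All embryonic shares were below those at P5, where dissection was confined to the PN, so that stage, dissection and depth cannot be told apart. Depth was lower in the embryo, with medians of 17324 to 23114 UMIs in the E18.5 cells within the limits against 28336 and 31236 at P5. In cells thinned to 10000 UMIs the mean share was 4.37% in E18.5 controls and 8.03% at P5. The limits on counts were not scaled to the thinned depth, and 2772 gated neurons remained at P5 of 8074. Shares of thinned cells are therefore those of a different set of cells.

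**Figure D4:**
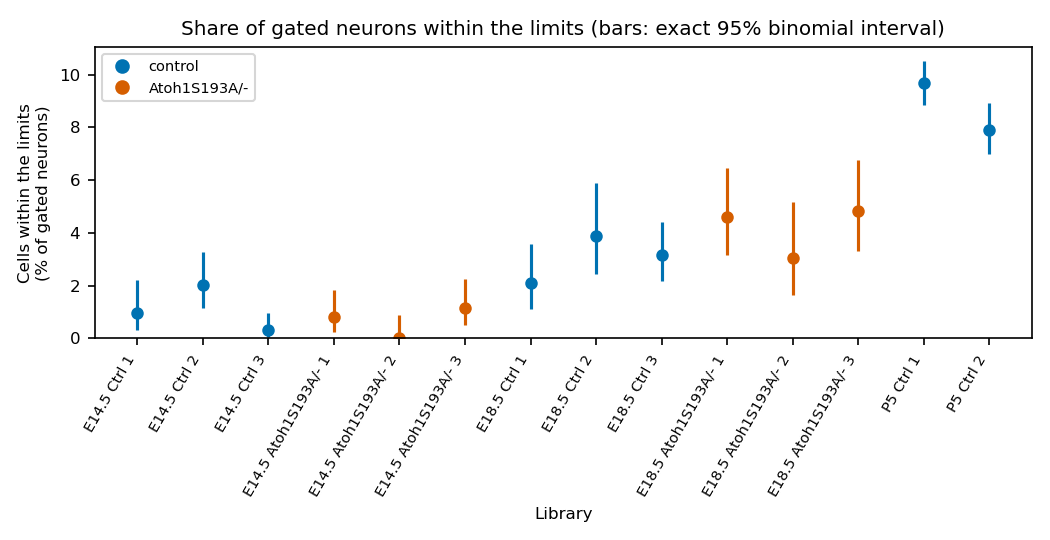
Cells within the limits as a percentage of gated neurons in each of the 14 libraries, with exact 95% binomial intervals for counting error, blue for controls and orange for *Atoh1*S193A/-. E18.5 controls lay between 2.10% and 3.89% and mutants between 3.06% and 4.82%, and the P5 libraries were at 9.67% and 7.92%.

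At E18.5 the cells within the limits were compared with the other gated neurons of the same embryos, both genotypes together and the library as a block. 277 of 10226 genes (2.71%) were higher and 246 (2.41%) lower, 5.11% in all. How many of these met the filter through a single group alone was not counted. Of the 303 genes higher at P5, 209 could be tested at E18.5, where 57 were higher (27.3%) and 7 lower. Those 57 were 18.8% of the P5 list and 20.6% of the E18.5 list. Of the 412 lower at P5, 296 were tested, 54 were lower (18.2%) and 12 higher, which made 13.1% of the P5 list and 22.0% of the E18.5 list. The limits removed the same classes at both stages, so that the calls at the 2 stages are not independent of the rule.

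When the 3 given markers outside the rule were kept in the E18.5 test, *Cdh8* was higher in the cells within the limits in all 6 libraries. It was at 116, 192 and 113 CPM in controls and 144, 117 and 140 CPM in mutants, against 64.2 to 83.5 CPM in the other gated neurons (log2 change 0.84 ± 0.10, edgeR adjusted p = 3.6e-08). *Rmst* (-0.17, edgeR adjusted p = 0.494) and *Pcdh19* (0.04, edgeR adjusted p = 0.951) did not pass, and their groups overlapped.

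Of all genes tested at E18.5, 50.9% were higher and 49.1% lower, and of the genes called at P5 and tested at E18.5, 71.3% of the higher and 71.3% of the lower had the same sign. Of the 24 genes named at P5, 21 had the same sign at E18.5 and 11 passed the test there, 10 of them in the P5 direction. Of the PN lists at E18.5, where 2.71% of all genes were higher and 2.41% lower, 4 of 8 PN1 genes were higher and 0 lower (median log2 change 0.56), but of 8 PN2 genes 0 were higher and 2 lower (-0.06), and of 8 PN5 genes 4 were higher and 3 lower (0.25). Of PN3 0 of 9 were higher and 2 lower, of PN4 1 of 9 higher and 4 lower, and of PN6 1 of 7 higher and 2 lower. Of the markers of other cells, 1 of 2 tested astrocyte genes was higher and 1 lower, 2 of 4 unipolar brush cell genes and 1 of 6 granule cell genes were lower, and 0 of 3 oligodendrocyte lineage and 0 of 4 cycling genes passed, and their part was not tested. *Ephb1* was at 181, 226 and 168 CPM in controls and 195, 175 and 192 CPM in mutants within the limits, against 65.8 to 99.1 CPM in the other gated neurons, with no overlap (log2 change 1.09 ± 0.09, edgeR adjusted p = 3.4e-12). *Ajap1* changed by 1.04, *Mb21d2* by 0.60, *Tshz3* by 0.55 and *Ext1* by 0.46. *Hoxc4* was lower in all 6 libraries (-1.73 ± 0.24, edgeR adjusted p = 3.4e-04) and had 0 UMIs within the limits in control 2. *Nrn1* (-1.02), *Lrrn3* (-0.76), *Igfbp2* (-0.66) and *Kcnd2* (-0.41) were lower too. *Hoxb3* rose (0.43). A Hox UMI was found in 51.8% to 80.1% of gated neurons and in 69.2% to 95.2% of cells within the limits, and the part of this difference in the Hox levels was not tested. *Car10* changed in the other direction. It was at 29.7, 3.01 and 25.1 CPM in controls and 12.3, 20.8 and 7.46 CPM in mutants against 32.0 to 48.2 CPM in the other gated neurons (-1.32 ± 0.22, edgeR adjusted p = 6.2e-05). *Slit1*, higher at P5, was called lower at E18.5 (-2.22), but there it met the filter through the other neurons alone and had to be lower. This call therefore cannot show whether *Slit1* changed direction between the stages. It was at 0 to 3.14 CPM in the cells within the limits, where a library held a few UMIs of it at most.

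**Figure D5:**
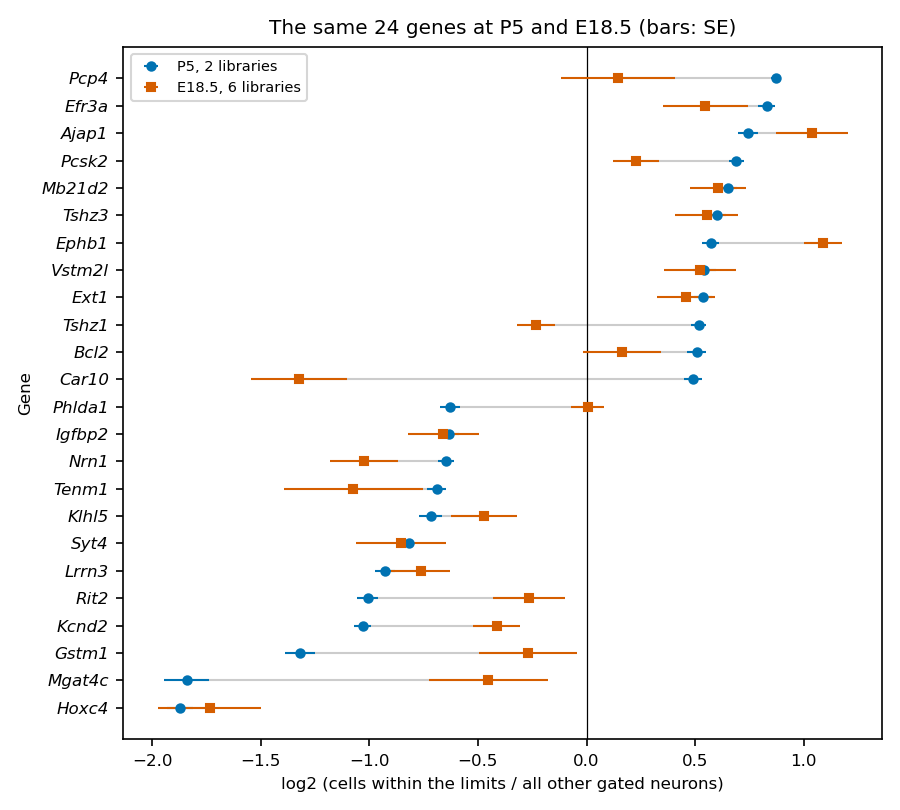
Log2 ratio of cells within the limits to all other gated neurons for the 24 genes named at P5, with blue circles for P5 (2 libraries) and orange squares for E18.5 (6 libraries), and bars for the SE. *Ephb1* and *Ajap1* lay above 0 at both stages and *Hoxc4* below, whereas *Car10* was at 0.49 at P5 and at -1.32 at E18.5.

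Within the limits the genotypes were compared at E18.5 on the summed UMIs of 3 control and 3 *Atoh1*S193A/- embryos. None of 10323 genes passed (0 called, edgeR, with 406 at an unadjusted p under 0.05, and 0 by DESeq2). Blocking on pairs of the same replicate number, taken as littermates, gave 8 genes, 2 higher and 6 lower in mutants. Levels here are CPM scaled by edgeR's normalization factors. *Epha5*, an ephrin-A receptor gene, was at 386, 215 and 298 CPM in controls and 145, 41.5 and 158 CPM in the mutants of the same number (log2 change -1.35 ± 0.19, edgeR adjusted p = 2.9e-07). *Sostdc1*, an antagonist of BMP and Wnt signals, was at 50.1, 35.8 and 63.7 CPM in controls and 102, 91.4 and 137 CPM in mutants (1.13 ± 0.25, edgeR adjusted p = 0.018). Both genes were picked by the blocked fit, so their levels are no further evidence. Without the block edgeR's adjusted p was 0.9995 for *Epha5* and 0.739 for *Sostdc1*. *Baiap2* was also higher (2.11) and *Crabp1* lower (-1.21). *Zfhx4* (-2.73) and 3 genes of dividing cells, *Top2a* (-3.25), *Smc4* (-2.46) and *Hist1h2ap* (-1.29), were lower, with *Top2a* at 159 CPM in control 1 and at 2.99 and 10.9 CPM in controls 2 and 3. Between 13 and 32 cells stood behind each of these values. In simulated data of this size, with an assumed dispersion of 0.02, the fit without a block recovered 25% of genes changed by 1 on the log2 scale.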

How the data were processed

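Droplet libraries (10x 3′ v3.1) of sorted TdTom+DAPI- cells were sequenced, and the authors made the deposited counts with Cell Ranger on mm10 with the reporter sequence added. Per the file headers, 12 libraries came from version 5.0.1 and 2 E14.5 control libraries from 3.1.0. The values are counts of UMIs per gene and barcode, not normalized. The members of the group and the gene lists were chosen with earlier results of these data known.

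Cells were kept at 1000 genes or more and under 10% mitochondrial UMIs, and the limits on marker genes were applied to raw counts. No doublets were removed, and leaving out the 7.5% of cells with the highest Scrublet scores was an alternative. UMIs were summed per library and class, and levels are CPM of that sum. At P5, sums of 14984179 and 8405343 UMIs stood behind the group, and depth differed between classes.

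Comparisons used edgeR 4.0.16 (limma 3.58.1, R 4.3.3), genes with a UMI in 10% or more of the cells of either group, TMM factors and the quasi-likelihood test, with the library as a block, and Benjamini-Hochberg adjustment over all genes tested. A gene was called at an adjusted p under 0.05 and a log2 change over 0.25 in size. The SE beside an edgeR log2 change was derived as its size divided by the square root of the test's F statistic. It is not the spread between libraries. The genotypes were compared without a block, and with the pair of the same replicate number as an alternative. The extraction protocol in the labels states that each mutant was collected with a littermate. Embryos of the same replicate number were taken as those littermates, although no label names the litter. Deviations of same-numbered libraries correlated at 0.113, -0.00766 and 0.177 over 3559 genes. Shares were compared by exact permutation over libraries. The labels call the pooled P5 libraries independent replicates without naming litters. The library block removes differences in level between libraries. P-values between cell groups set the difference between groups against a spread that was borrowed across genes. At P5, with 2 libraries, the borrowed spread outweighed the gene's own. *Nxph1* changed by -0.94 and -1.50 against *Tcerg1l*-low neurons in libraries 1 and 2, yet its SE was 0.07. The P5 p-values are therefore no measure of how a single gene varied between libraries.

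The named genes at P5 were the 12 with the largest rises and the 12 with the largest falls against all other gated neurons, and 6 in each direction in the other 3 comparisons, among called genes at 50 CPM or more that changed the same way in both libraries. Called list members were named as examples, led by the largest changes, and other genes for the context of a result. Alternatives were DESeq2 1.42.0, edgeR's RLE factors, no filter on low counts, no block, under 5% mitochondrial UMIs, doublet removal, cells of 10000 to 25000 UMIs, and leaving out each library. On simulated data, genes changed by 0.5 on the log2 scale were recovered at 91% for all other gated neurons, 77% for *Tcerg1l*-low, 80% for Sst-high and 74% for Cdkn1c-high neurons, 23% for the E18.5 comparison with other gated neurons and 2% for the genotypes (25% at a change of 1). The dispersion of the simulated counts was set and not estimated, at 0.001 for P5 and 0.02 for E18.5, and the simulated genotypes were fitted without a block. Scanpy 1.11.5 was used for doublet scores. *Hoxd4*, which has 2 identifiers, was not used. Results for some genes are not reported here.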

Additional observations from a re-analysis of the deposited data

Results flagged for a closer look

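For 8 of the 24 genes named at P5, the log2 ratio of cells within the limits to the other gated neurons differed between P5 and E18.5 in an edgeR fit over both stages with an interaction term (adjusted p under 0.05, 388 of 9991 genes). The ratio was higher at P5 than at E18.5 by 1.81 for *Car10*, by 0.75 for *Tshz1* and by 0.48 for *Pcsk2*. It was lower at P5 for *Gstm1* (-1.07), *Rit2* (-0.73), *Phlda1* (-0.63), *Kcnd2* (-0.62) and *Ephb1* (-0.50). P5 libraries came from dissected PN of controls, and E18.5 libraries from whole hindbrains of both genotypes, with lower depth in the cells within the limits. Stage, dissection, genotype and depth therefore cannot be told apart here.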

How the results depend on the processing

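The mean P5 share was 13.3% with *Tcerg1l* at 1 UMI or more and 5.48% at 3 or more, and the E18.5 difference between genotypes turned to -0.66 percentage points in thinned cells (0.646 to 1.67 when 1 embryo was left out). DESeq2 called 323, 8, 248 and 682 genes against all other, *Tcerg1l*-low, Sst-high and Cdkn1c-high neurons, and edgeR with no replicate block 4, 0, 93 and 681. In cells of 10000 to 25000 UMIs the count against Sst-high neurons was 483. At E18.5, 346 genes were called with under 5% mitochondrial UMIs. Between genotypes, the replicate block (pairs of the same number) gave 8 genes and no filter 11, and leaving out 1 embryo gave 0 to 2. The causes were not tested. Of 60 calls of named P5 genes, 35 were lost without the block, 1 (*Ly6d*) in cells of 10000 to 25000 UMIs and 0 with RLE factors, no filter, under 5% mitochondrial UMIs or doublets removed. Their directions with either library alone were fixed by the choice of genes. DESeq2 gave an adjusted p for 48 of them, and all 48 passed. A single library holds no replicate spread.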

Other observations

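Immediate early genes are given here because their comparison with *Tcerg1l*-low neurons was not described above. Of 15 tested, 4 were higher in *Tcerg1l* neurons and 0 lower (edgeR, library as a block), where 3.96% of all genes passed. They were *Fosb* (log2 change 0.52), *Ier3* (0.52), *Egr1* (0.43) and *Npas4* (0.29). Of 13 tested Hox genes and cofactors in the same comparison 9 did not pass. *Hoxb3* was higher (0.32), and *Hoxc4* (-1.10), *Hoxb4* (-0.71) and *Hoxa4* (-0.69) were lower. Over all genes, DESeq2 called 8 in this comparison and edgeR without the library block 0 (272 at an unadjusted p under 0.05).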
